A study of Mus musculus with 9 samples.

Results

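The mRNA levels of 10 CXC and CC chemokine genes were read by bulk RNA sequencing in the livers of 9 C57BL/6J mice. The genes were Cxcl1, Cxcl2, Cxcl9, Cxcl10, Cxcl12, Cxcl13, Ccl2, Ccl5, Ccl6 and Ccl9, picked by symbol out of 56748 genes in the count table, and all 10 were found. They were taken up because Cxcl13 was high in 2 of the Indirubin libraries, so the member values in comparisons with the Indirubin group are a description, with no p-value for a single member. The study asked how indirubin, a component of the herbal product indigo naturalis, acts on the liver during chronic colitis. Each group had 3 mice, which were 7 to 8 weeks old when obtained. The DSS group had 3 cycles of 1.8% dextran sulfate sodium, an agent that injures the colon, in its drinking water and sterile water by mouth. The Indirubin group had the same dextran sulfate sodium and 1 g/kg/day of indirubin by mouth. The Control group had sterile water by mouth and is labelled with water alone. Since the text deposited with the series describes dextran sulfate sodium before it names the groups, the labels do not settle whether Control mice had it.

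Chemokines are small secreted proteins that guide migrating leukocytes along gradients by binding G protein-coupled receptors. Some, such as Cxcl12 and Cxcl13, are made steadily and place cells within tissues, while others, such as Cxcl1, Cxcl2, Cxcl9, Cxcl10, Ccl2 and Ccl5, are switched on by inflammatory signals. In liver they are made by hepatocytes, Kupffer cells, endothelium and stellate cells, and they draw neutrophils, monocytes and lymphocytes out of the sinusoids.

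Library totals were 6514863 to 7944684 counts, of which 71.6% to 91.3% lay on the mitochondrial genome, leaving 569044 to 2132208 nuclear counts. Mitochondrial counts took 71.6% in Indirubin-2, 77.2% in Indirubin-3 and 72.4% in DSS-3, and 85.8% to 91.3% in the other libraries. The label of liver was borne out by its markers, since Alb, Apoa1, Ttr, Ahsg and Cps1 were counted in every library. Replicates of a group correlated at 0.670 to 0.801 on the log2 scale over 9713 genes. Levels are given as raw counts and as normalized CPM, which are counts scaled to library size with TMM factors over all 9 libraries, and a group with 3 counts or fewer in each library is said to be at the floor. In bulk tissue, more cells of a type and more RNA per cell cannot be told apart.

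The members came from 3 chromosomes, in the deposited coordinates of GRCm39. Cxcl1 (91039100 to 91040974, plus strand), Cxcl2 (91051730 to 91053797, plus), Cxcl9 (92469206 to 92475938, minus), Cxcl10 (92494497 to 92496748, minus) and Cxcl13 (96104810 to 96108927, plus) lay on chromosome 5. Ccl2 (81926397 to 81928279, plus), Ccl5 (83416604 to 83421344, minus), Ccl9 (83463745 to 83469462, minus) and Ccl6 (83478708 to 83483913, minus) lay on chromosome 11. Cxcl12 (117145496 to 117158328, plus) lay alone on chromosome 6. Some were close neighbours on the same strand: 9245 bases separated Ccl9 from Ccl6, 10755 separated Cxcl1 from Cxcl2, and 18558 separated Cxcl9 from Cxcl10.

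The 250 bases before the start site are shown for 4 members because their levels went different ways: Cxcl13, Cxcl1 and Ccl9 were highest in Indirubin-2 or Indirubin-3, and Cxcl10 was highest in Control-3. They are RefSeq sequences of GRCm38.p6, written 5′ to 3′ on the strand of the gene. Cxcl13 is chr5:95956689-95956938 on the plus strand, Cxcl1 is chr5:90890995-90891244 on the plus strand, Ccl9 is chr11:83578637-83578886 on the minus strand and Cxcl10 is chr5:92348890-92349139 on the minus strand. RefSeq windows were found for 8 of the 10 members, the missing entries being Ccl2 and Ccl5. Capitals mark matches, on either strand, to the motifs searched, which were the kappa B motif of NF-kappa B, the paired motif of interferon regulatory factors (GAAA, any 2 bases, GAAA), TTCNNNGAA of STAT factors and GCGTG, the core read by the aryl hydrocarbon receptor.
Cxcl13: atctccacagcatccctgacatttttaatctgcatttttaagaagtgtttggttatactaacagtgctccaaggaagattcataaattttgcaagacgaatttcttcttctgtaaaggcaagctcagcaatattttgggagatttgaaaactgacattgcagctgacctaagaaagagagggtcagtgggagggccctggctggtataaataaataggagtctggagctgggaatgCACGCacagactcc
Cxcl1: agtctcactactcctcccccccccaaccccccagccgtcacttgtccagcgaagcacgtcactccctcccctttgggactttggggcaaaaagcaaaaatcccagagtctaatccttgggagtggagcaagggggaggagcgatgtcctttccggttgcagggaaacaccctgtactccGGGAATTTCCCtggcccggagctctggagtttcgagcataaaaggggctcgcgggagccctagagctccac
Ccl9: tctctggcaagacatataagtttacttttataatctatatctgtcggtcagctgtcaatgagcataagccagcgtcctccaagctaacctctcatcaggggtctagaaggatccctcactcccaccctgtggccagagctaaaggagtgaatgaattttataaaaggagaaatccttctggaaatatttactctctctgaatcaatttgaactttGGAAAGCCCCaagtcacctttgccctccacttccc
Cxcl10: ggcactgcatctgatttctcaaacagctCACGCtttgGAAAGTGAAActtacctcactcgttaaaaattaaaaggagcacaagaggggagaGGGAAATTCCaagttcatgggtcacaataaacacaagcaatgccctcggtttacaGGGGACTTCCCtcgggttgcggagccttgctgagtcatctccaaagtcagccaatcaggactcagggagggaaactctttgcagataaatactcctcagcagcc

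The kappa B motif lay in the windows of Cxcl1, Cxcl2, Cxcl10 and Ccl9, 4 of the 8, and in 7.25% of 32851 windows of the same length over all genes. Its first base stood at -71 and -70 in Cxcl1, at -97 and -96 in Cxcl2, at -35 in Ccl9 and at -159, -104 and -103 in Cxcl10, counted back from the start site, with the neighbouring matches overlapping each other. The paired GAAA motif lay only in Cxcl10 among the 8 (2.98% of all windows), starting at -213 and clear of the other matches. TTCNNNGAA lay in none of the 8 (7.02% of all). GCGTG lay in Cxcl2, Cxcl10 and Cxcl13 (28.2% of all), at -14 in Cxcl13. The windows of Cxcl9, Cxcl12 and Ccl6 held none of the motifs.

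Cxcl13, which draws B cells into lymphoid follicles through the receptor Cxcr5, set the pattern that led to this choice of genes. Cxcl13 (ENSMUSG00000023078) had 11, 25 and 9 counts in the Control libraries, 24, 50 and 88 in the DSS libraries, and 4, 1325 and 1148 in the Indirubin libraries. In CPM these were 2.14, 4.40 and 2.19, then 2.84, 8.85 and 8.02, then 0.731, 107 and 98.1. Indirubin-2 and Indirubin-3 stood far above every other library, and Indirubin-1 stood below all of them, so the Indirubin group overlapped both others.

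**Figure D1:**
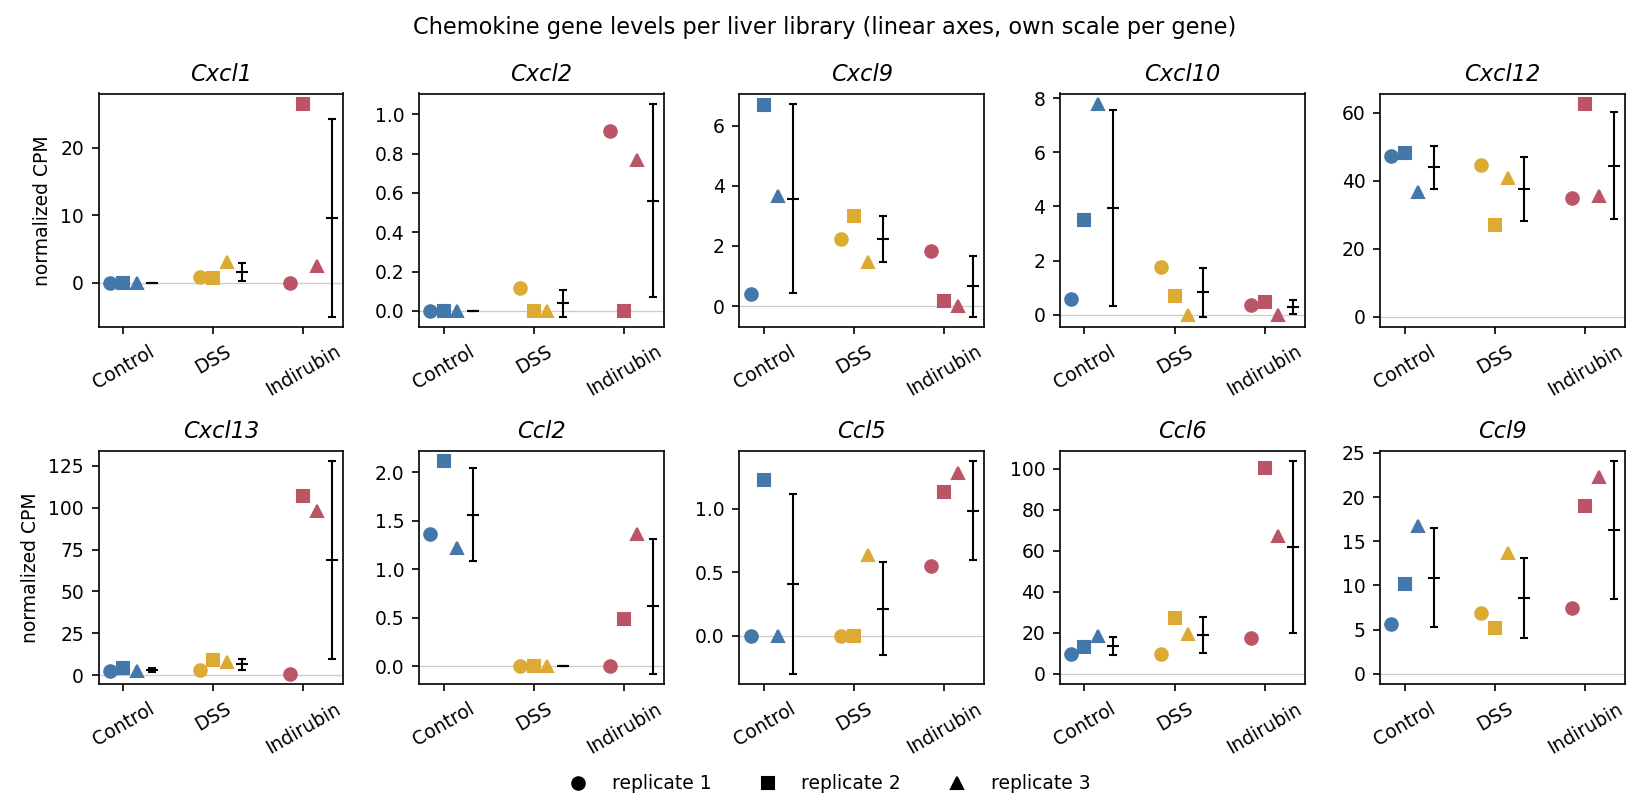
Normalized CPM (linear axis, a separate scale for each gene) of the 10 chemokine genes in the 9 liver libraries. Points are single libraries, with a marker shape for each replicate number, and the bar beside each group is the mean ± SD (n = 3). Cxcl13 reached 107 and 98.1 CPM in Indirubin-2 and Indirubin-3 and stood at 0.731 CPM in Indirubin-1, and Ccl6 was highest in the same 2 libraries.

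The means of Cxcl13 were 2.91 ± 1.29 CPM in Control, 6.57 ± 3.26 in DSS and 68.7 ± 59.0 in Indirubin (SD, n = 3). Indirubin differed from DSS by 3.40 on the log2 scale (standard error 1.08), and from Control by 4.60 (standard error 1.14). Without Indirubin-2 and Indirubin-3 the sign of both differences turned, to -3.13 against DSS and -1.96 against Control, with 1 Indirubin library left. Without Indirubin-1 they were 3.87 and 5.02. The comparison of DSS with Control did not use the values behind the choice: Cxcl13 was 1.20 higher in DSS, in log2 units (standard error 0.66, adjusted p = 0.765, quasi-likelihood F test of edgeR, Benjamini-Hochberg), and DSS-1 lay within the Control range.

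Cxcl13 also changed place among the members. It held 3.20%, 4.92% and 2.52% of the counts on the 10 genes in the Control libraries and 4.09%, 12.2% and 9.21% in the DSS libraries. In Indirubin-1 its share was 1.14% (exact 95% interval 0.310% to 2.88%), in Indirubin-2 33.7% (32.2% to 35.2%) and in Indirubin-3 42.8% (40.9% to 44.7%), intervals that cover counting error only. The share of Cxcl12 was 70.6%, 53.9% and 42.3% in Control, 64.6%, 37.1% and 47.0% in DSS, and 54.3%, 19.7% and 15.5% in Indirubin. Cxcl12 thus held a smaller share in Indirubin-2 and Indirubin-3 than anywhere else. The summed count of the 10 genes was 344 to 956 in the other 7 libraries and 3933 and 2683 in those 2.

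**Figure D2:**
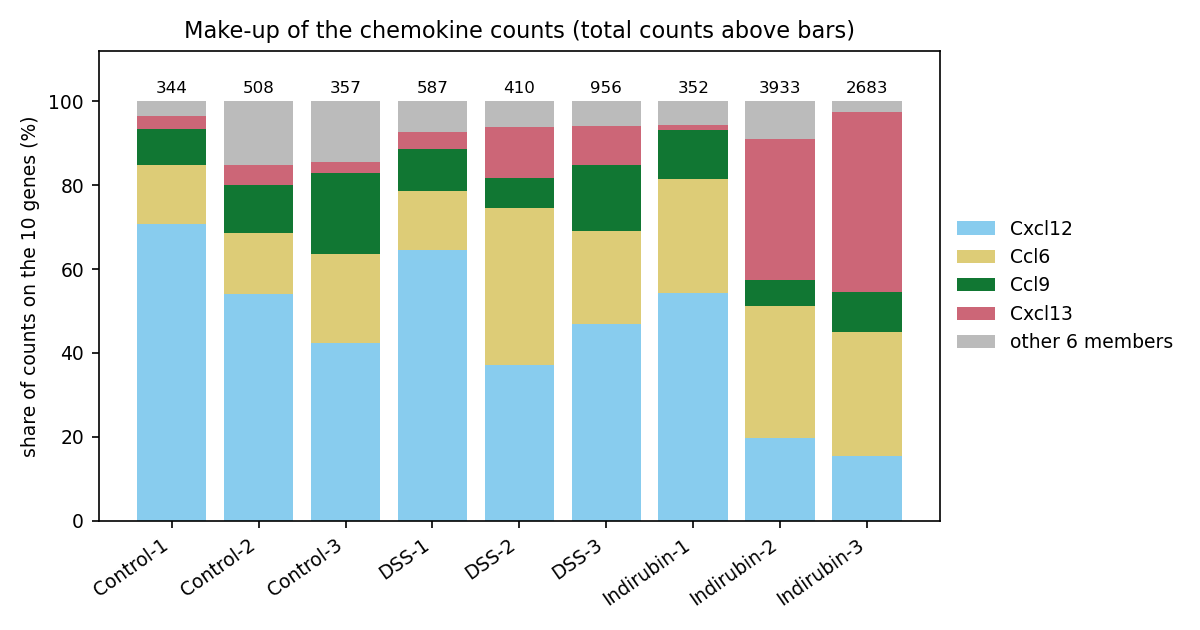
Share of the counts on the 10 chemokine genes (percent, linear axis from 0) taken by Cxcl12, Ccl6, Ccl9, Cxcl13 and the other 6 genes in each library, with the summed count above each bar. Cxcl13 took 33.7% and 42.8% in Indirubin-2 and Indirubin-3, and at most 12.2% in the other libraries.

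The other homeostatic ligand, Cxcl12 (ENSMUSG00000061353), holds stem cells and lymphocytes in place through Cxcr4 and is made by endothelial and stromal cells. It was at 47.2, 48.2 and 36.7 CPM in Control, 44.8, 26.9 and 40.9 in DSS and 34.9, 62.6 and 35.6 in Indirubin. Each group overlapped the others, with Indirubin-2 highest and DSS-2 lowest. DSS differed from Control by -0.19 (log2; standard error 0.31, adjusted p = 1.000, edgeR), and by 0.51 when library size alone set the scale, which moved the median of all genes to 0.70. Indirubin differed from DSS by 0.25 (standard error 0.40) and from Control by 0.056 (standard error 0.37) on the log2 scale.

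Ccl6 (ENSMUSG00000018927) and Ccl9 (ENSMUSG00000019122) are rodent CC chemokines of macrophages and other myeloid cells that act through Ccr1. Ccl6 had 49, 74 and 76 counts in Control, 83, 154 and 212 in DSS and 96, 1244 and 788 in Indirubin. On the CPM scale these were 9.52, 13.0 and 18.5, then 9.81, 27.3 and 19.3, then 17.5, 101 and 67.3. As for Cxcl13, Indirubin-2 and Indirubin-3 lay above all other libraries, while Indirubin-1 lay within the range of both other groups.

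The means of Ccl6 were 13.7 ± 4.52 CPM in Control, 18.8 ± 8.74 in DSS and 61.8 ± 41.8 in Indirubin (SD, n = 3). Ccl6 was 0.49 higher in DSS than in Control in log2 units (standard error 0.44, adjusted p = 0.975, edgeR). Its log2 difference of Indirubin from DSS was 1.73 (standard error 0.59), and from Control 2.23 (standard error 0.57). With Indirubin-2 and Indirubin-3 both left out these were -0.087 and 0.35.

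Ccl9 had 29, 58 and 69 counts in Control, 58, 29 and 150 in DSS and 41, 235 and 261 in Indirubin. In CPM it was at 5.63, 10.2 and 16.8, then 6.85, 5.13 and 13.7, then 7.49, 19.0 and 22.3. Indirubin-2 and Indirubin-3 were again the highest, by a smaller margin over Control-3 than for Ccl6. The log2 difference of DSS from Control was -0.32 (standard error 0.52, adjusted p = 1.000, edgeR), turning to 0.52 with library size alone as the scale. Indirubin differed by 0.94 from DSS (standard error 0.52) and by 0.64 from Control (standard error 0.51). Without Indirubin-2 and Indirubin-3 these were -0.20 and -0.54.

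The neighbours Ccl6 and Ccl9 did not keep a fixed ratio. Ccl6 had 1.69, 1.28 and 1.10 counts for each count of Ccl9 in Control, 1.43, 5.31 and 1.41 in DSS, and 2.34, 5.29 and 3.02 in Indirubin. DSS-2 and Indirubin-2 had nearly the same ratio, and the Indirubin libraries lay above all Control libraries.

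Cxcl1 (ENSMUSG00000029380) and Cxcl2 (ENSMUSG00000058427) draw neutrophils through Cxcr2. Cxcl1 had no count in the Control libraries, 8, 4 and 34 in the DSS libraries and 0, 327 and 29 in the Indirubin libraries. All DSS libraries lay above all Control libraries, and the Indirubin libraries ran from 0 to 26.5 CPM, the highest value in Indirubin-2. Against the floor of 3 counts a library, Cxcl1 was at least 2.58-fold higher in DSS than in Control, and at least 1.35-fold without DSS-3. It had too few counts there for the edgeR test. The log2 difference of Indirubin from DSS was 2.58 (standard error 1.24), but -0.32 without Indirubin-2.

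Cxcl2 had 1 count in DSS-1, 5 in Indirubin-1 and 9 in Indirubin-3, and none in the other 6 libraries. It differed in this from Cxcl1, which was counted in Indirubin-2 and not in Indirubin-1. Their receptor Cxcr2, looked up after the values were seen, had no count in any of the 9 libraries, which allows up to 3 counts in each.

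Cxcl9 (ENSMUSG00000029417) and Cxcl10 (ENSMUSG00000034855) are induced by interferon gamma and draw activated T cells through Cxcr3. Cxcl9 had 2, 38 and 15 counts in Control, 19, 17 and 16 in DSS and 10, 2 and 0 in Indirubin. In CPM it was at 0.388, 6.68 and 3.65, then 2.24, 3.01 and 1.46, then 1.83, 0.162 and 0. The DSS libraries lay inside the Control range, and Indirubin-2 and Indirubin-3, the highest for Cxcl13, were the lowest for Cxcl9.

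Cxcl9 in DSS differed from Control by -0.62 in log2 units (standard error 0.97, adjusted p = 1.000, edgeR), and by 0.15 without Control-2. For Indirubin the log2 difference was -1.82 from DSS (standard error 1.55) and -2.54 from Control (standard error 1.41). Without Indirubin-1 the Indirubin group is at the floor, with 2 and 0 counts, and no difference is given.

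Cxcl10 had 3, 20 and 32 counts in Control, 15, 4 and 0 in DSS and 2, 6 and 0 in Indirubin. In CPM these were 0.583, 3.52 and 7.78, then 1.77, 0.708 and 0, then 0.366, 0.485 and 0. Every Indirubin library lay below every Control library in CPM, the nearest being Indirubin-2 and Control-1. These had 6 and 3 counts in totals of 6722579 and 7122519, so their order rests on the TMM factors and turns with library size alone. The log2 difference of DSS from Control was -2.19 (standard error 1.36, adjusted p = 0.863, edgeR), and it was -1.29 without Control-3 and -3.55 without DSS-1. The Indirubin comparisons had too few counts for the fit.

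Ccl2 (ENSMUSG00000035385), which calls monocytes out of the marrow through Ccr2, had 7, 12 and 5 counts in Control, none in the DSS libraries and 0, 6 and 16 in Indirubin. All Control libraries lay above all DSS libraries, and Ccl2 was at least 4.04-fold lower in DSS against the floor of 3 counts. The Indirubin libraries spanned both groups. Ccl5 (ENSMUSG00000035042), a product of T cells and platelets, had 0, 7 and 0 counts in Control, 0, 0 and 7 in DSS and 3, 14 and 15 in Indirubin. The groups of Ccl5 overlapped in CPM, and neither gene had enough counts for the edgeR test.

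Compared per length on the deposited FPKM scale, the order of the members changed at its top. In Control it ran Ccl6 (7.17 ± 2.63), Cxcl12 (5.02 ± 0.548), Ccl9 (3.37 ± 1.86), Cxcl13 (2.33 ± 0.910), Cxcl10, Ccl2, Cxcl9 and Ccl5, with Cxcl1 and Cxcl2 at 0, and the ranges of all neighbours above 0 overlapped. In DSS it ran Ccl6 (9.98 ± 5.01), Cxcl13 (5.41 ± 2.76), Cxcl12 (4.32 ± 0.965) and Ccl9 (2.61 ± 1.22), whose lowest library was above the highest of Cxcl1, the next in order (SD, n = 3). In Indirubin Cxcl13 came first by its mean (56.5 ± 48.5, with 0.623, 81.4 and 87.6 in the libraries) and Ccl6 second (32.7 ± 21.7). The lowest Ccl6 value there was above the highest of Cxcl12 (5.18 ± 1.75), while Cxcl13 overlapped Ccl6 because of Indirubin-1.

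Over the 10 members, 6 passed the filter on low counts in DSS against Control, 6 in Indirubin against DSS and 5 in Indirubin against Control. In DSS against Control, no tested member had an adjusted p under 0.05 by edgeR or by DESeq2, against 0.214% of 7482 tested genes called higher and 0.495% called lower by edgeR. None was under an unadjusted 0.05 (3.48% of genes higher, 4.05% lower). Cxcl1 (higher) and Ccl2 (lower) did not overlap, 1 member each way, and neither was among the tested genes, of which 7.07% did not overlap with DSS higher and 8.62% with DSS lower. The choice of the members used the next 2 comparisons, so their counts are printed beside the background and nothing is read from them. In Indirubin against DSS no member passed the adjusted threshold (0% of 9117 tested genes each way) or lacked overlap (10.4% higher, 6.04% lower), and 2 members had an unadjusted p under 0.05 (4.45% of genes higher, 3.22% lower). In Indirubin against Control no member passed the adjusted threshold (0.062% of 8059 genes higher, 0.174% lower), and 2 members were under the unadjusted one (7.45% higher, 6.38% lower). Cxcl10 was the member without overlap, lower in Indirubin, and was not among the tested genes. Of those, 12% did not overlap with Indirubin higher and 9.5% with Indirubin lower.

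The median log2 difference of the tested members was -0.26 in DSS against Control, 1.33 in Indirubin against DSS and 0.64 in Indirubin against Control, beside 0.011, 0.15 and 0.13 over all tested genes. The choice of the members used the comparisons with the Indirubin group, so nothing is read from those medians. The tested members numbered 6, 6 and 5 and were not the same genes throughout. The plot of fold changes shows that the spread among members was wider than these medians: in Indirubin against Control they ran from -2.54 for Cxcl9 to 4.60 for Cxcl13.

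**Figure D3:**
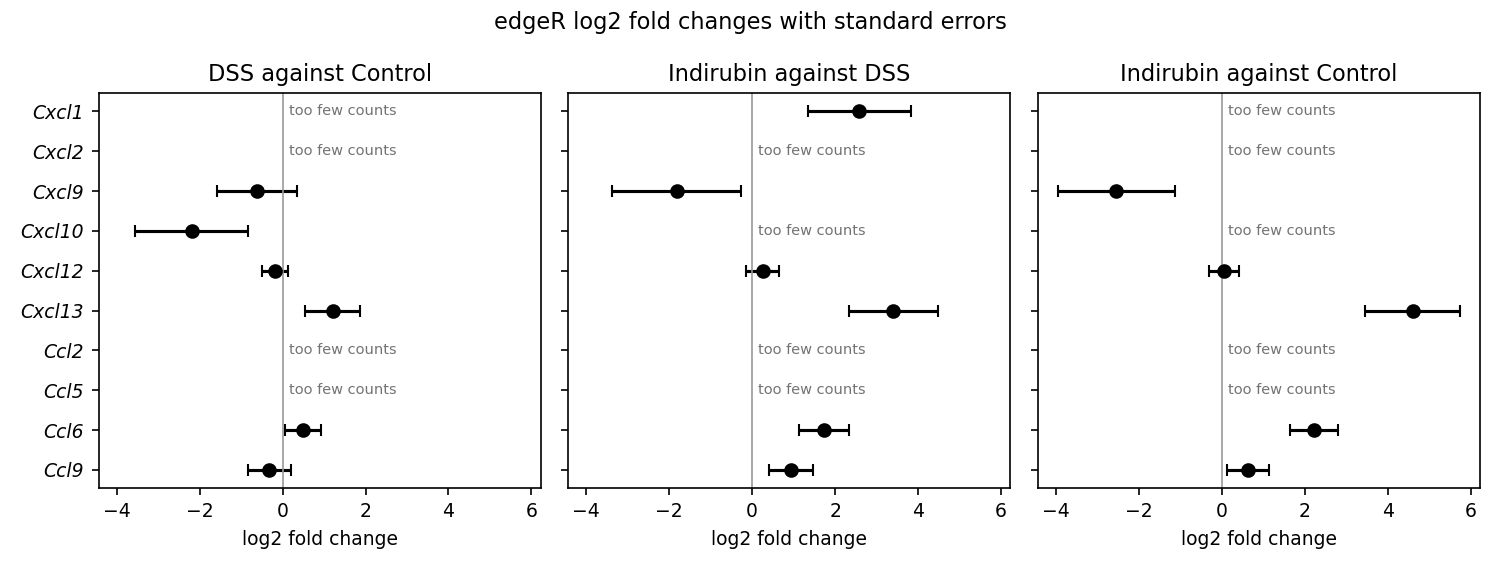
Log2 fold changes of the 10 chemokine genes (x axis, log2 scale) in the 3 comparisons, as fitted by edgeR, with bars of 1 standard error; genes with too few counts for the fit are named as such. Cxcl13, Ccl6 and Ccl9 lay above 0 and Cxcl9 below 0 in both comparisons with the Indirubin group, whose values are a description.

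The receptors and remaining ligands were read from few counts. Of 31 other ligands, 11 had no count in any library and 5 were tested in some comparison, and of 18 chemokine receptors 6 had no count and 2 were tested, Cxcr4 among them. None of the 5 atypical receptors passed the filter. No other ligand or receptor had an adjusted p under 0.05 in any of the 3 comparisons, 0 had an unadjusted p under 0.05, and DESeq2 called 0.

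Cxcr5, the receptor of Cxcl13, had 11, 2 and 7 counts in the DSS libraries and none in the Control or Indirubin libraries. It was at least 1.25-fold higher in DSS than in Control and at least 2.19-fold higher than in Indirubin against the floor of 3 counts. Without DSS-1 these figures were 0.809, below the floor, and 1.42. Thus the libraries with the most Cxcl13 had no Cxcr5 count.

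Cxcr4, the receptor of Cxcl12, had 3, 7 and 4 counts in Control, 20, 7 and 0 in DSS and 26, 22 and 20 in Indirubin. The Indirubin libraries lay above the Control libraries in CPM (log2 difference 1.56, standard error 0.96, adjusted p = 0.520, edgeR) and overlapped DSS. Without Indirubin-1 the difference was 0.81. Ccr1, the receptor of Ccl6 and Ccl9, was looked up after the values were seen and had 46 counts in Indirubin-2, none in Indirubin-3 and at most 5 elsewhere. Ccr2, the receptor of Ccl2, had 7, 9 and 7 counts in Indirubin, none in Control and 0, 0 and 20 in DSS, and was at least 1.42-fold higher in Indirubin than in Control. Cxcr3, the receptor of Cxcl9 and Cxcl10, was looked up after the values were seen and was counted in 4 libraries, with at most 10 counts.

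Of the 54 other ligands and receptors, most with too few counts to be tested, 2, 3 and 5 were higher without overlap in the 3 comparisons and 0, 1 and 0 lower. The shares over all tested genes were 7.07%, 10.4% and 12% higher and 8.62%, 6.04% and 9.5% lower. Ccr9, which homes lymphocytes to the gut, had 10, 19 and 10 counts in Indirubin, at most 3 in DSS and none in Control, at least 3.64-fold above DSS and 2.29-fold above Control. Cxcr6, a receptor of liver T cells and natural killer T cells, had 6, 6 and 2 counts in Indirubin, 1 in DSS-3 and none elsewhere, which is 0.953 times the floor against Control and at least 1.51-fold above DSS. Without Indirubin-1 its level was 0.535 and 0.850 times those floors, so no fold can be given. Ccl21a, a lymphoid homing ligand with near-identical copies that make its count uncertain, had 8, 39 and 17 counts in DSS and none in Control, at least 5.11-fold higher, or 2.03-fold without DSS-2. Cxcl14 had 6, 2 and 45 counts in Indirubin and none in DSS, at least 4.41-fold higher, or 1.63-fold without Indirubin-3. Ccrl2, an atypical receptor, had 3, 10 and 12 counts in Indirubin and at most 2 in Control, at least 1.30-fold higher.

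Of 13 genes of chemokine induction and lymphoid signalling, 7, 7 and 6 were tested in the 3 comparisons. Irf1, an interferon-induced transcription factor, was at 2.53, 3.52 and 2.43 CPM in Control, 7.80, 4.78 and 4.74 in DSS and 3.84, 2.10 and 1.03 in Indirubin. Its DSS libraries lay above those of both other groups, with a log2 difference of 1.08 from Control (standard error 0.63, adjusted p = 0.828, edgeR) and of -1.33 for Indirubin from DSS (standard error 0.70, adjusted p = 0.742). Nfkb2, of the noncanonical NF-kappa B pathway that drives Cxcl13 in lymphoid stroma, had 7, 12 and 0 counts in Control, 19, 29 and 21 in DSS and 17, 48 and 50 in Indirubin. Indirubin was above Control without overlap, by 1.70 in log2 units (standard error 0.97, adjusted p = 0.482, edgeR), or 1.12 without Control-3. It overlapped DSS, from which it differed by 0.31 (standard error 0.71, adjusted p = 0.981). Ltb, a lymphotoxin chain upstream of that pathway, had 2, 6 and 13 counts in Control and 0, 4 and 0 in Indirubin, also without overlap in CPM.

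Over the 9 libraries, the genes outside the members whose log2 CPM followed Cxcl13 most closely were Mat1a (Pearson r = 0.963), Hbb-bt (0.963), ENSMUSG00000121069 (0.957), Steap4 (0.937), Cdo1 (0.934), Cp (0.932), Gm16573 (0.923), Mt2 (0.921), Mt1 (0.920) and Aldoa (0.917), out of 9712 genes. Mat1a makes S-adenosylmethionine in hepatocytes, Cp encodes ceruloplasmin, and Mt1 and Mt2 are metallothioneins, while Hbb-bt is a beta-globin gene whose count is uncertain because of a near-identical copy. Mt1 had 32, 52 and 24 counts in Control, 195, 869 and 1701 in DSS and 22, 5357 and 8238 in Indirubin, low in Indirubin-1 as Cxcl13 was. The points share their libraries and depth. With Indirubin-2 and Indirubin-3, the libraries farthest from the median of Cxcl13, left out, r over the remaining 7 was 0.852 for Mat1a, 0.882 for Mt1 and 0.490 for Mt2.

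Among the members, Ccl6 was nearest to Cxcl13 (r = 0.892, rank 25 of 9712), then Cxcl1 (0.844, rank 51) and Ccl9 (0.652, rank 473). Cxcl12 stood at 0.258, Cxcl10 at -0.455 and Cxcl9 at -0.675. Over the 7 libraries without Indirubin-2 and Indirubin-3 these values were 0.391 for Ccl6, 0.680 for Cxcl1, 0.038 for Ccl9 and 0.232 for Cxcl9, so the likeness of Ccl6 and Ccl9 rested on those 2 libraries.

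Summed markers of some other cell types were also highest in Indirubin-2 and Indirubin-3, and their part in the result was not tested. The 8 pancreatic acinar genes summed to 1.41 to 14.1 CPM in Control, 0 to 0.547 in DSS and 3.47, 600 and 780 in Indirubin, with all 8 counted in Indirubin-2 and Indirubin-3 and 3 to 8 of them at 0 in every other library. The 6 neutrophil genes summed to 1.17 to 3.16 CPM in Control, 11.5 to 19.7 in DSS and 26.0, 240 and 83.8 in Indirubin. Of these genes, 2 had enough counts for the fit, S100a8 and S100a9. Both had an adjusted p of 0.029 by edgeR in Indirubin against Control (log2 differences 6.27 and 5.12). Neither was under 0.05 in the other comparisons. All 6 neutrophil genes were counted in Indirubin-2, and Ly6g was counted there alone. In Indirubin-3, S100a8 and S100a9 gave 444 and 483 of 980 neutrophil counts, with Ly6g and Csf3r at 0. The neutrophil sum of Indirubin-1, where Cxcl13 was lowest, was above every Control and DSS library. Indirubin-2 had the most neutrophil marker RNA and the most Cxcl1, and Indirubin-3 the most acinar marker RNA.

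The 5 monocyte genes were at 12.3 to 25.5 CPM in Control, 12.4 to 13.1 in DSS and 19.2, 57.5 and 42.6 in Indirubin, with 1 to 3 at 0 outside Indirubin-2. The 4 peritoneal macrophage genes were at 5.84 to 19.0, 9.57 to 27.8 and, in Indirubin, 4.39, 24.3 and 43.8 CPM, and Gata6 among them had 0, 57 and 68 counts in Indirubin and at most 10 elsewhere. The 6 Kupffer cell genes, all counted in every library, were at 59.3 to 118, 108 to 127 and 119 to 156 CPM. The sum hides unequal members, named here after their values were seen. Marco, a scavenger receptor, had 11, 17 and 12 counts in Control, 76, 112 and 150 in DSS and 47, 380 and 833 in Indirubin, and was the marker of the 6 with an adjusted p under 0.05 by edgeR, at 0.044 for DSS and 0.047 for Indirubin against Control (log2 differences 2.43 and 3.82). In CPM, Marco was at 8.59, 30.7 and 71.2 and Timd4 at 2.01, 9.38 and 5.04 in the Indirubin libraries, both lowest in Indirubin-1 as Cxcl13 was. The other 4 did not follow it: Vsig4 was at 27.8, 25.9 and 18.4, Adgre1 at 6.95, 4.93 and 4.53, Cd5l at 53.9, 56.3 and 42.9, and Clec4f at 19.6, 25.6 and 14.0, each lowest in Indirubin-3.

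The summed markers of B cells, which Cxcl13 draws, did not follow it, and those of lymphoid stroma had too few counts to tell. The 5 B cell genes were at 0.729 to 8.79 CPM in Control, 3.01 to 21.6 in DSS and 13.0, 1.05 and 3.85 in Indirubin, highest in DSS-1. The 5 genes of follicular dendritic and lymphoid stromal cells summed to at most 1.54 CPM in any library, with Madcam1 and Tnfsf11 at 0 in all 9 and Cr2 at 0 in the Control and Indirubin libraries. The 5 T cell genes were at 0.879 to 4.38, 0 to 2.60 and 3.07 to 6.40 CPM, with Cd8a counted in Control-1 alone. Their sum hides unequal genes, named here after their values were seen. Cd3g had 21, 23 and 27 counts in Indirubin, above both other groups without overlap in CPM. Cd3e had 5, 15 and 27 there, above DSS without overlap and highest in Indirubin-2 and Indirubin-3. Cd3d had 4, 0 and 0 counts in Indirubin, and Cd4 had 5, 0 and 0.

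**Figure D4:**
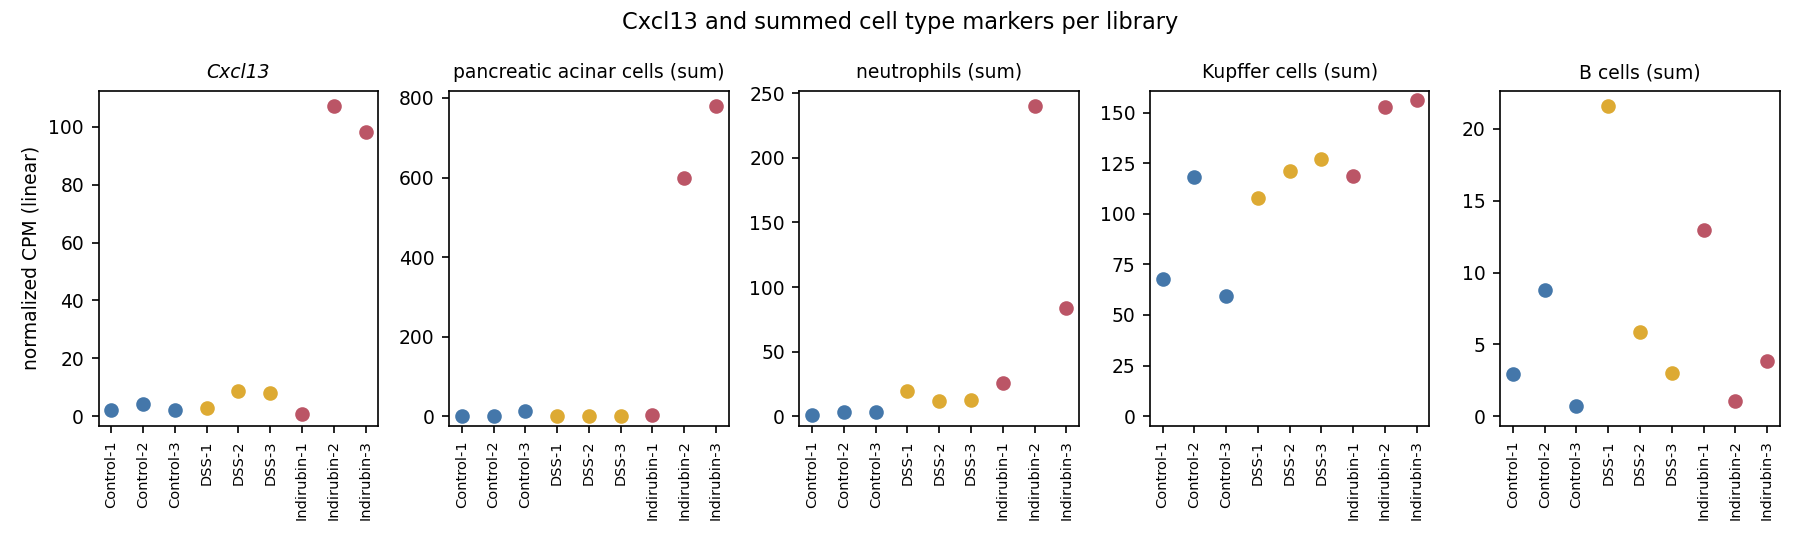
Normalized CPM (linear axis) of Cxcl13 and of the summed markers of pancreatic acinar cells, neutrophils, Kupffer cells and B cells in each library, coloured by group. The acinar sum was at 600 and 780 CPM in Indirubin-2 and Indirubin-3, where Cxcl13 was at 107 and 98.1, and the B cell sum was highest in DSS-1, at 21.6.

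The 4 mesothelial genes were at 0.486 to 1.58 CPM in Control, 0 to 1.77 in DSS and 2.74, 2.59 and 9.91 in Indirubin, all Indirubin libraries lying above all others, with Wt1 giving most of the counts there. Summed CPM in Control, DSS and Indirubin was 20.8 to 38.9, 20.0 to 33.9 and 33.2 to 41.2 for 4 sinusoidal endothelial genes, and 92.4 to 159, 54.8 to 87.9 and 81.2 to 148 for 5 stellate cell and fibroblast genes. The 4 intestinal genes were at 0.973 to 10.1, 5.67 to 7.26 and 4.13 to 11.2, and the 4 adipocyte genes at most at 2.74, with Adipoq at 0 in all 9. The 5 hepatocyte genes were lowest in Indirubin-2, at 6375 CPM, and highest in Control-2, at 17664. Indirubin-1, which lacked the high Cxcl13, had a hepatocyte sum of 9766 CPM.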

How the data were processed

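Liver RNA of 9 mice was sequenced on a DNBSEQ instrument from 400 ng libraries. Raw whole-number counts per gene were deposited by the authors, on GRCm39 per the submitters' processing notes; the aligner, counter and annotation are not given in the sources used here. The FPKM values deposited by the authors were used only to compare genes per length; their library size is not the total count. The deposited group means, fold changes, p-values and gene lists were not used.

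Comparisons of counts used edgeR 4.0.16 under R 4.3.3 (TMM, filterByExpr with a minimum count of 10 and minimum total of 15, glmQLFit, glmQLFTest), on the 6 libraries of each comparison, with Benjamini-Hochberg adjustment over all tested genes. The standard error is the size of the log2 fold change over the square root of F. P-values set a group difference against the spread between libraries, each from a different mouse. That spread cannot be split into differences between mice and differences of sampling or library. With 3 against 3, an exact two-sided permutation test cannot go below 0.1. Folds against a group at the floor (3 counts a library, averaged over the group) are lower bounds and cover counting error only, as do the exact Clopper-Pearson intervals. Log2 CPM used a prior count of 2. Alternatives were the size factors or Wald test of DESeq2 1.42.0, library size alone, other filters, all 9 libraries, no mitochondrial genes, a replicate block and libraries left out; leaving out Indirubin-2 and Indirubin-3 together was chosen after seeing the data. Same-numbered replicates correlated at -0.022 to 0.028 in their deviations from the group means, so they were not paired. Scripts were tested on simulated data.

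The members and lists were chosen with earlier results of these data known. Besides the members, named genes are those of the ligand, receptor and inducer lists with an unadjusted p under 0.05 or no overlap, at most 5 each way, and the 10 genes most like Cxcl13; exceptions are said to be looked up later, and Ccrl2 is also outside the rule. Some genes that the rule names are not reported here. Promoters were matched by symbol to RefSeq windows.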

Additional observations from a re-analysis of the deposited data

How the results depend on the processing

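No member of the 10 passed an adjusted p of 0.05 in DSS against Control under any of the 14 alternatives, and no other ligand or receptor did in any of the 3 comparisons. The counts of members in the comparisons with the Indirubin group use the values the genes were chosen for, and leaving out Indirubin-1 keeps the high libraries alone, so they support nothing. In Indirubin against DSS, 1 member passed without the filter on low counts, where 156 of 23034 tested genes passed. Without Indirubin-1, 1 member and 134 of 10817 genes passed (0 to 1 members with single libraries left out). In Indirubin against Control, 0 members and 19 of 8059 genes passed by the main test. With library size alone 2 members and 266 of 8059 genes passed, and with the DESeq2 Wald test 2 and 316 of 8059. Without the filter these were 3 and 379 of 22767. Without Indirubin-1 they were 3 and 465 of 9721 (0 to 3 members with single libraries left out). At least 10 counts in every library gave 1 and 72 of 3602, and all 9 libraries in a single fit 1 and 56 of 9713. For the filter and left-out alternatives, the number of genes or samples changed by construction; otherwise the cause was not tested.

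The log2 difference of Cxcl13 stayed above 0 under the alternatives with at most 1 library left out that gave a value: 0.90 to 1.85 in DSS against Control, 2.38 to 3.98 in Indirubin against DSS and 3.61 to 5.83 in Indirubin against Control. With at least 10 counts required in every library Cxcl13 gave no value. With Indirubin-2 and Indirubin-3 left out together, and the lone library assumed to vary like the others, it was -3.13 and -1.96. The same step gave, against DSS, -6.63 for Cxcl1 (no bound, since it is at 0 there), -0.10 for Cxcl12, -0.087 for Ccl6 and -0.20 for Ccl9, and against Control -0.34 for Cxcl12 and -0.54 for Ccl9. Leaving out 1 library also turned the sign of Cxcl9 in DSS against Control (0.15 without Control-2, lowest -1.21), Ccl9 there (0.12 without Control-3, lowest -0.79), Cxcl1 in Indirubin against DSS (-0.32 without Indirubin-2, highest 3.53), Cxcl12 there (-0.017 without DSS-2, -0.086 without Indirubin-2, highest 0.39) and Cxcl12 in Indirubin against Control (-0.088 without Control-3, -0.29 without Indirubin-2, highest 0.19). Over the same steps in DSS against Control, Cxcl10 ran from -3.55 to -1.29 and Ccl6 from 0.10 (without DSS-2) to 0.79. Library size alone moved the median of all genes to 0.70, 0.43 and 1.10 in the 3 comparisons, and turned Cxcl12 to 0.51 and Ccl9 to 0.52 in DSS against Control, both below that shift.

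With the replicate number as a block, the log2 difference of Cxcl13 was 1.14, 2.38 and 3.61 in the 3 comparisons, and no count of members at an adjusted p under 0.05 changed, while the calls over all genes went from 53, 0 and 19 to 30, 3 and 49. The replicates share only a number.

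The limit for Cxcl2, Ccl2, Ccl5 and most receptors is depth: with 569044 to 2132208 nuclear counts a library, their group differences rest on a few counts, and a count of 0 allows up to 3. All genes at an adjusted p under 0.05 numbered 53, 0 and 19 in the 3 comparisons by edgeR and 143, 80 and 316 by DESeq2, and without Indirubin-1 edgeR called 134 and 465 in the comparisons with the Indirubin group.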
